A study of Brassica napus with 33 samples.

Results

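Ovules of the selfed F1 hybrid of oilseed rape (Brassica napus) were compared between an early stage, 15 days after pollination (OS15), and a later stage at 30 days (OS30), for the small RNA reads counted on each cluster, a stretch of the Express617 genome assembly from which small RNAs were sequenced. The comparison took the 6 ovule libraries of the F1 out of 33 libraries in the series, with 3 biological replicates per stage, and all 91060 clusters with a position. The F1 comes from the cross of the winter-type line Express617 as mother with the semi-winter, semi-synthetic line G3D001 as father. The F1 plants were grown outdoors and self-pollinated, so that each ovule holds an F2 seed in which the alleles of both parents segregate, and the ovules of both stages are enclosed in heterozygous F1 maternal tissue. A replicate pooled 4 ovules from 4 plants. For comparison the series holds F1 leaves from the six-leaf stage (3 libraries, each of 7 plants), and ovules at OS15 and OS30 from selfed Express617, from selfed G3D001 and from the F0, which are Express617 ovules pollinated with G3D001, again with 3 libraries per stage. G3D001 was described in the study's supplement as carrying a duplication of chromosome A02 and a deletion of chromosome C02.

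Most small RNAs of plants are small interfering RNAs (siRNAs) and microRNAs. The siRNAs of 24 bases are made from transcripts of RNA polymerase IV by RDR2 and DCL3, and guide DNA methylation to transposons and repeats. In the ovules and the seed coat of Brassica rapa a small set of strongly expressed loci, called siren loci, gives most of these siRNAs, and they are of maternal origin. MicroRNAs are cut from hairpin transcripts and silence messenger RNAs. The counts do not mark which clusters are of siRNA or microRNA, and no loci that mark a tissue of the seed are given, so the results cover all clusters and are not assigned to embryo, endosperm or seed coat.

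Between 17197786 and 18444761 reads were counted on the clusters in the OS15 libraries, and between 20581915 and 27070031 in the OS30 libraries. Replicates of a stage correlated with r of 0.965 to 0.980 on log2 values across clusters, and each pair differed by more than counting error. Levels are given as CPM, counts on a cluster per 1000000 cluster reads of a library, or as CPM per kilobase of cluster length where clusters are compared with each other. The ovule libraries stood apart from leaf. The strongest leaf cluster, Cluster_55810 on C05, had 314221 to 322142 CPM in the 3 leaf libraries, and 6630 to 19044 CPM in the 6 ovule libraries. Of the 1000 clusters with the most reads in the F1 at OS15, 187 were among the first 1000 of F1 leaf and 890 among the first 1000 of F0 ovules at OS15. No RNA of known amount was added, so all levels are shares of a library, and fewer cells of a type and less RNA per cell cannot be told apart.

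At OS15 a small number of loci made most of the small RNA of the F1 ovules, and by OS30 the reads had spread over many more loci. Of the reads at OS15, 50% lay on 162, 159 and 161 clusters in replicates 1, 2 and 3, and at OS30 on 439, 383 and 274 clusters. To hold 90% of the reads it took 1165, 1224 and 1280 clusters at OS15, and 37106, 36043 and 32267 at OS30. The groups did not overlap for either measure. The 1000 strongest clusters of a library held 88.5%, 88.0% and 87.6% of its reads at OS15 and 57.3%, 59.0% and 63.7% at OS30. Differences of this kind were tested with the exact permutation test, two-sided, whose smallest possible p with 3 against 3 libraries is 0.10, and all measures named so far gave that value. The very top of the ranking held a similar share at both stages, with 12.9% ± 0.859 of the reads on the first 10 clusters at OS15 and 13.4% ± 1.25 at OS30 (SD, n = 3 each, exact permutation test, p = 0.70).

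**Figure D1:**
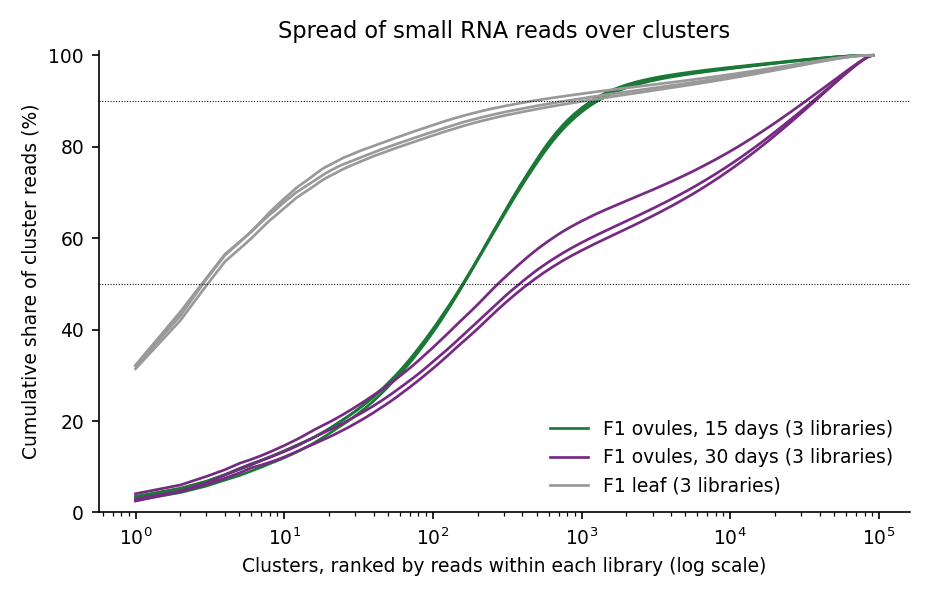
Cumulative share of cluster reads (%, y axis) against the number of clusters taken in order of their reads within each library (x axis, log scale), for the F1 ovule libraries at 15 and 30 days and the F1 leaf libraries; dotted lines mark 50% and 90%. The 3 lines of OS15 lie on each other and reach 90% at 1165 to 1280 clusters, whereas the lines of OS30 reach it only at 32267 to 37106.

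Sequencing depth differed between the stages, so each library was also drawn down to the 17197786 reads of the smallest. At this depth, 25724, 27133 and 27921 clusters had at least 10 reads at OS15, and 87026, 87796 and 87456 had them at OS30. Thus 3.25 times as many loci passed the minimum at the later stage, and the groups did not overlap. The median cluster had 4, 5 and 5 reads in the OS15 libraries as deposited, and 57, 57 and 62 in the OS30 libraries. F1 replicate 3 of OS30 had the most reads and was the library of its stage most like OS15, with the fewest clusters holding 50% or 90% of the reads.

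Counts of each cluster were compared between OS30 and OS15 with edgeR's quasi-likelihood test, with Benjamini-Hochberg adjustment over the 91047 clusters with a count and an adjusted p under 0.05. With library totals as the scale, so that a change is a change in the share of the library, 76870 clusters rose (84.4%) and 5309 fell (5.83%), and 8868 did neither. The median log2 fold change was 3.45, which is a 10.95-fold rise, and the middle 50% of clusters lay between 2.06 and 4.51. Of the clusters that rose, 68758 did so at least 4-fold and 33049 at least 16-fold. Of those that fell, 1982 did so at least 4-fold and 249 at least 16-fold. The 5309 clusters that fell had held 75.2%, 73.7% and 74.0% of the reads of the OS15 libraries and held 28.8%, 29.4% and 32.1% of the reads of the OS30 libraries. They were chosen by their fall in these same libraries, so the lower share at OS30 follows from the choice.

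The direction of these calls depends on the scale. TMM factors, which assume that most clusters do not change, moved the median log2 fold change by -3.07 to 0.39, and then 28361 clusters were higher (31.1%) and 23689 lower (26%). With RLE factors the median moved by -2.97 to 0.48, with 30841 clusters higher (33.9%) and 22945 lower (25.2%). Of the clusters called, 93.5% were higher with total counts, 54.5% with TMM and 57.3% with RLE. A total of 28361 clusters were higher (31.1%) and 5309 were lower (5.83%) with both total counts and TMM, while 9684 (10.6%) were higher with total counts and lower with TMM. The shared calls are all clusters higher with TMM and all clusters lower with total counts. Since TMM moved the changes down, this overlap gives no support to either list. The calls given by level, length and chromosome as risen or fallen use total counts.

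Gains and losses were distributed unevenly over the levels of clusters. To keep the classes independent of the F1 libraries, clusters were grouped by their mean CPM per kilobase in the 3 F0 libraries at OS15, a grouping chosen after the values were seen. Among the 1433 clusters with a level of 100 or more in the F0, 68.2% fell and 17.7% rose in the F1. Their median log2 fold change was -0.95, which lies at -4.40 from the median of all clusters. Between 10 and 100, 38.9% fell and 32.1% rose. Below that level more clusters rose than fell. The median log2 fold change was 1.80 from 2 to 10, 3.08 from 0.5 to 2, 3.82 from 0.1 to 0.5, and 5.13 below 0.1, where 97.6% of 13994 tested clusters rose and 1.03% fell. With TMM the order of the classes was the same, with 98.5% lower in the top class and 68.7% higher in the bottom class. Clusters below 0.1 are long, with a median of 1492 bp, against 594 bp in the top class. Every cluster in the counts has at least 347 reads over the 33 libraries, so one with few reads at OS15 is listed through its reads in other groups, the OS30 ovules among them. The rises of the low classes, and of long clusters at a low level, are therefore given as a description, with no support drawn from them. The F0 levels were also taken at OS15, the first stage of the comparison, which favours falls in the high classes.

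**Figure D2:**
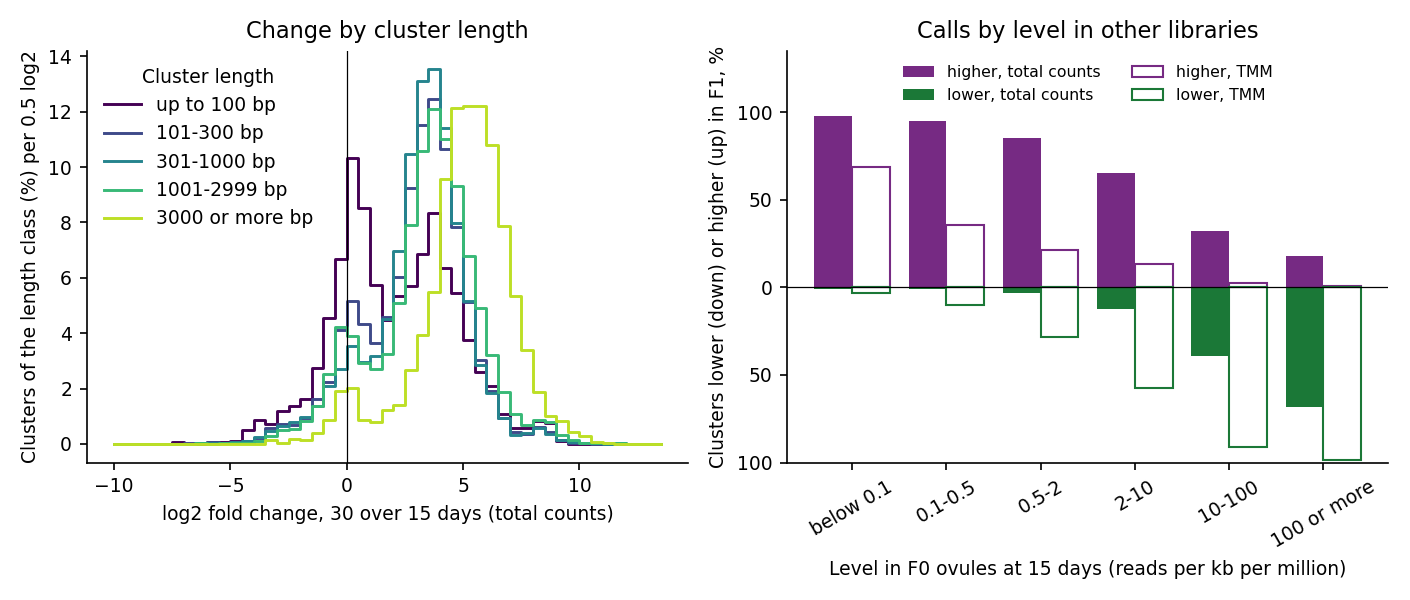
Left, share of clusters (%, y axis) per step of 0.5 in log2 fold change of OS30 over OS15 (x axis, total counts) for 5 classes of cluster length; right, percent of clusters called higher (up) or lower (down) in the F1 by the level in F0 ovules at OS15 (x axis), with total counts (filled) and TMM (open). Clusters of 3000 bp or more lie to the right of the others, and calls turn from 97.6% higher in the lowest class to 68.2% lower in the highest (total counts).

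In terms of reads, the clusters in the top class of the F0 held 87.7%, 87.3% and 87.1% of the reads of the F1 at OS15, and 53.9%, 55.9% and 60.5% at OS30. The share of the bottom class was 0.385%, 0.487% and 0.379% at OS15 and 7.57%, 7.22% and 6.09% at OS30. Neither pair of groups overlapped. Of the 1000 clusters with the most reads in the F0 at OS15, 761 fell and 141 rose in the F1. These clusters had a median log2 fold change of -1.14 and a median length of 998.5 bp. Their median level in F1 leaf was 0.218 CPM per kilobase, against 453 in F1 ovules at OS15 and 185 at OS30. The median hides members that were strong in leaf, since the 1000 clusters together held 82.6%, 81.3% and 80.4% of the F1 leaf reads. In F1 ovules they held 86.8%, 86.5% and 86.1% at OS15 and 52.8%, 54.8% and 59.4% at OS30. This list was ranked at OS15, the first stage of the comparison, which favours clusters that fall. Of the 1000 clusters with the most reads in the F0 at OS30, 483 fell and 389 rose in the F1. The median log2 fold change of that list was -0.22. With levels taken from the 6 F1 libraries themselves, the class of 100 or more (1435 clusters) held 59.1% clusters that fell, and the medians of the classes from 0.5 to 2 and from 2 to 10 were nearly equal at 3.53 and 3.54. The class below 0.5 had a lower median of 2.04 there.

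A split by the level in F1 leaf, which shares no library with the comparison, gave another order. The 2347 tested clusters without any leaf read were divided, with 45.7% rising and 41.3% falling and a median log2 fold change of 0.19. Clusters with a leaf level above 0 and under 0.5 had the largest median, 4.03, and the median then dropped with leaf level to 3.42, 3.06 and, at 10 or more, 1.18. Clusters with a leaf level above 0 and under 0.5 held 59.6% ± 1.22 of the F1 reads at OS15 and 39.8% ± 0.818 at OS30 (SD, n = 3 each). Clusters of 10 or more in leaf held 23.1%, 24.3% and 25.6% at OS15 and 30.8%, 33.6% and 34.6% at OS30. The groups did not overlap in either class.

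Cluster length went with the size of the change. Classes of length ran up to and including 100, 300 and 1000 bp, from there to under 3000 bp, and from 3000 bp. The median log2 fold change was 2.05 for the 1963 tested clusters of up to 100 bp, 3.25 for those of 100 to 300 bp, 3.34 for 300 to 1000 bp, 3.64 for 1000 to 3000 bp and 5.27 for the 3642 clusters of 3000 bp or more. Relative to all clusters, the shortest class lay at -1.41 and the longest at 1.82 on the log2 scale, and with TMM their medians were -1.02 and 2.22. Of the longest clusters 94.4% rose and 1.78% fell, and 79.1% were still higher with TMM. Of the shortest 64.9% rose and 11.3% fell, and 18.8% were higher and 49.5% lower with TMM. The shortest class had 2 peaks in the plot of fold changes, with 203 clusters between 0 and 0.5 and 164 between 3.5 and 4 on the log2 scale. The other classes also had a peak near 0, but it was lower than their main peak. At 100 to 300 bp, 764 clusters lay between 0 and 0.5 and 1843 between 3.5 and 4. The 2 classes differed in level too: the median level at OS15 was 5.90 CPM per kilobase in the shortest class and 0.0533 in the longest.

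Length and level were also crossed, with level from the 6 F1 libraries. The classes of level thus use the same libraries as the fold change, and the medians within them are a description. Below a level of 0.5 the median log2 fold change was 0.76 at 100 to 300 bp, 0.49 at 300 to 1000 bp, 2.28 at 1000 to 3000 bp and 4.62 at 3000 bp or more. Within the level from 0.5 to 2, the median log2 fold change was 1.33 at 100 to 300 bp, 3.14 at 300 to 1000 bp, 3.71 at 1000 to 3000 bp and 5.32 at 3000 bp or more. From 2 to 10 the same classes had medians of 3.30, 3.54, 3.86 and 5.89, and clusters of up to 100 bp had 1.49. At a level of 100 or more the median was 0.61 for the 149 shortest clusters, 0.26 at 100 to 300 bp, -1.08 at 300 to 1000 bp, -1.13 for 359 clusters of 1000 to 3000 bp and -0.29 for the 32 longest. In that level class 81.1% of the clusters of 1000 to 3000 bp fell.

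The shares of reads by length differed between the stages as well. Clusters of 1000 to 3000 bp held 46.8%, 46.1% and 45.4% of the reads at OS15 and 36.2%, 35.9% and 36.5% at OS30. Clusters of 3000 bp or more held 6.98%, 6.84% and 6.83% at OS15 and 10.9%, 10.5% and 10.1% at OS30. The shares of the 3 classes of up to 1000 bp were higher at OS30, from 1.10% ± 0.11 to 1.48% ± 0.0376 up to 100 bp, from 7.83% ± 0.273 to 10.8% ± 0.267 at 100 to 300 bp and from 38.1% ± 0.421 to 41.0% ± 0.126 at 300 to 1000 bp (SD, n = 3 each). In all 5 classes the stages did not overlap, and the exact permutation test gave its smallest p of 0.10, which is also 0.10 after adjustment over the classes. Without the 100 strongest clusters the class of 300 to 1000 bp held 41.07% at OS15 and 41.08% at OS30.

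**Figure D3:**
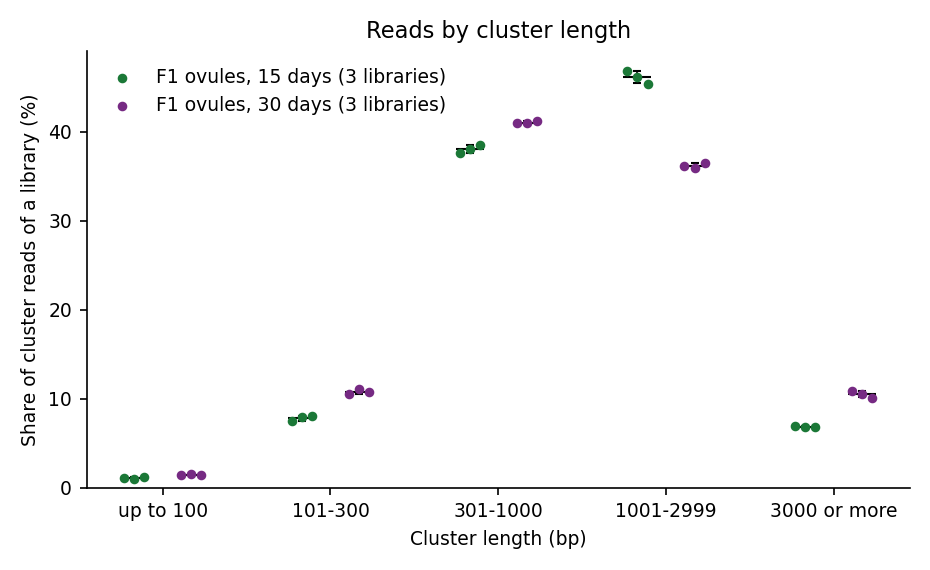
Share of cluster reads of a library (%, y axis) in 5 classes of cluster length (x axis) for the F1 ovule libraries at 15 and 30 days; points are libraries, bars the mean and SD of 3. Only the class of 1000 to 3000 bp was lower at OS30, with 35.9% to 36.5% against 45.4% to 46.8%.

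Across chromosomes the gain was even when clusters were counted and uneven when reads were counted. The median log2 fold change of the 19 chromosomes lay between 3.30 on A03 and 3.62 on C01, and unplaced sequences had 3.02. The percent of clusters that fell ranged from 4.14% on C09 to 10.3% on A06, and by subgenome it was 7.49% of 32027 tested clusters on A and 5.09% of 51609 on C. The reads shifted more. A06 held 6.41%, 6.13% and 6.13% of the reads at OS15 and 3.72%, 3.66% and 3.92% at OS30. A04 went from 4.10% ± 0.222 to 2.81% ± 0.0874, and A03 from 6.17% ± 0.117 to 5.02% ± 0.0789 (SD, n = 3 each). In these 3 chromosomes each OS30 library was below each OS15 library.

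In the other direction, C04 held 3.98%, 3.96% and 3.92% of the reads at OS15 and 6.22%, 6.26% and 6.05% at OS30. A07 went from 3.28% ± 0.101 to 5.42% ± 0.488, and C01 from 2.67% ± 0.0826 to 3.61% ± 0.128 (SD, n = 3 each). The groups did not overlap on these chromosomes. Without the 100 strongest clusters C04 held 3.65% at OS15 and 6.16% at OS30, whereas A07 held 3.21% and 3.28%. The single Cluster_21772 of A07, described with the strongest clusters, had 4389 to 5708 CPM at OS15 and 14714 to 20574 CPM at OS30. The stages overlapped on C05, C06, C07 and C08. For the other 16 of the 20 classes (19 chromosomes and the unplaced sequences) they did not overlap, with a p of 0.10 by the exact permutation test before adjustment over the 20. The A subgenome held 43.4%, 42.7% and 42.4% of the reads on A and C chromosomes at OS15, and 40.7%, 39.3% and 39.1% at OS30 (exact permutation test, p = 0.10).

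**Figure D4:**
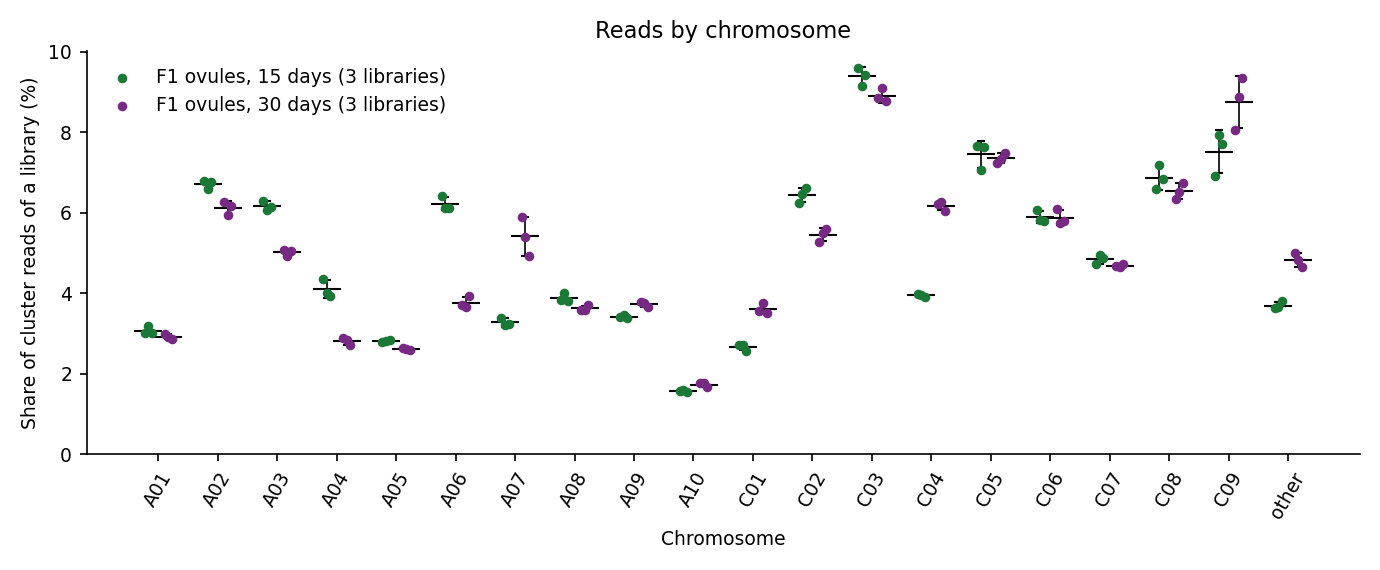
Share of cluster reads of a library (%, y axis) on each chromosome and on unplaced sequences ("other", x axis) for the F1 ovule libraries at 15 and 30 days; points are libraries, bars the mean and SD of 3. A06, A04 and A03 are lower and A07, C04 and C01 higher at OS30, and C05 to C08 overlap.

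Along the chromosomes, the covered length was cut into 5 equal parts. The median log2 fold change was 3.40 in the first and 3.32 in the last part, and 3.58, 3.56 and 3.52 in the parts between. More clusters fell at the ends, 8.07% and 7.08%, than in the middle part, 4.18%. The end parts held 25.4% ± 0.126 and 22.9% ± 0.139 of all cluster reads at OS15, and 23.6% ± 0.99 and 20.4% ± 0.0901 at OS30 (SD, n = 3 each), with no overlap of the stages in either. The extreme single parts were the last of A08, with a median of 2.54, and the second of A10, with 3.99.

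Clusters that fell lay close together in some places. The chromosomes were cut into windows of 200 kb, chosen for description after the values were seen and not tested. Of 3821 windows with a tested cluster, 2168 held at least 1 cluster that fell and 192 held 5 or more clusters that fell, and these 192 held 30.6% of the 5028 such clusters on chromosomes. The 192 were picked by their falls, and the share of all clusters that lay in them was not computed. Windows rich in clusters reach 5 more readily, with a median of 22 clusters per window, so the 30.6% does not show grouping by itself. In 11 windows more clusters fell than rose. The window with the most lies on C05 from 9200001 to 9400000, where 98 clusters fell, 2 rose and 1 did neither, with a median log2 fold change of -3.05. It held 1.14%, 0.949% and 1.05% of all cluster reads at OS15 and 0.121%, 0.122% and 0.147% at OS30. On A06 from 7000001 to 7200000, 67 of 77 clusters fell and 9 rose, and the share of reads was 2.89%, 2.56% and 2.73% at OS15 against 0.335%, 0.342% and 0.405% at OS30. The mean share of this window was thus 2.73% at OS15 and 0.361% at OS30, next to 6.22% and 3.77% for the whole of A06. On C06 from 4400001 to 4600000, 33 of 61 clusters fell and 25 rose, 8 of them at least 64-fold, and the share was 1.03%, 0.900% and 0.903% at OS15 and 0.396%, 0.332% and 0.460% at OS30. F1 leaf libraries had 0.000538% to 0.00281% of their reads in these 3 windows.

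Other windows held strong gains. On A08 from 6800001 to 7000000, 23 of 46 clusters rose at least 64-fold (log2 of 6 or more), 45 rose in all and none fell. Summed over the window there were 10.5, 9.49 and 8.31 CPM at OS15 and 918, 769.6 and 689.6 CPM at OS30. On C03 from 200001 to 400000, 14 of 34 clusters rose 64-fold, with 15.8, 14.4 and 14.2 CPM at OS15 and 395.5, 371 and 335 CPM at OS30. F1 leaf had 57.9 ± 5.75 CPM in the A08 window and 18.9 ± 1.65 CPM in the C03 window (SD, n = 3 each).

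The same windows in the other ovules were compared with those of the F1. In Express617 99 of the clusters in the C05 window fell, with 0.741% ± 0.0401 of the reads at OS15 and 0.101% ± 0.00618 at OS30, and in the F0 99 fell as well, from 0.944% ± 0.0699 to 0.0873% ± 0.00892 (SD, n = 3 each). In G3D001 9 fell, and the window held 0.370% ± 0.0456 at OS15 and 0.329% ± 0.0327 at OS30. In the A06 window 68 clusters fell in Express617, 67 in the F0 and 1 in G3D001, where the share was 1.63% ± 0.235 at OS15 and 1.91% ± 0.129 at OS30. In the C06 window 33 clusters fell in Express617, 35 in the F0 and 1 in G3D001. Its share went from 0.496% ± 0.0383 to 0.430% ± 0.0504 in Express617 and from 0.585% ± 0.0482 to 0.431% ± 0.042 in the F0. In G3D001 the C06 window held 0.659% ± 0.121 at OS15 and 1.395% ± 0.153 at OS30 (SD, n = 3 each). The windows were chosen by the change in the F1, and no test was made of their difference between genotypes.

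**Figure D5:**
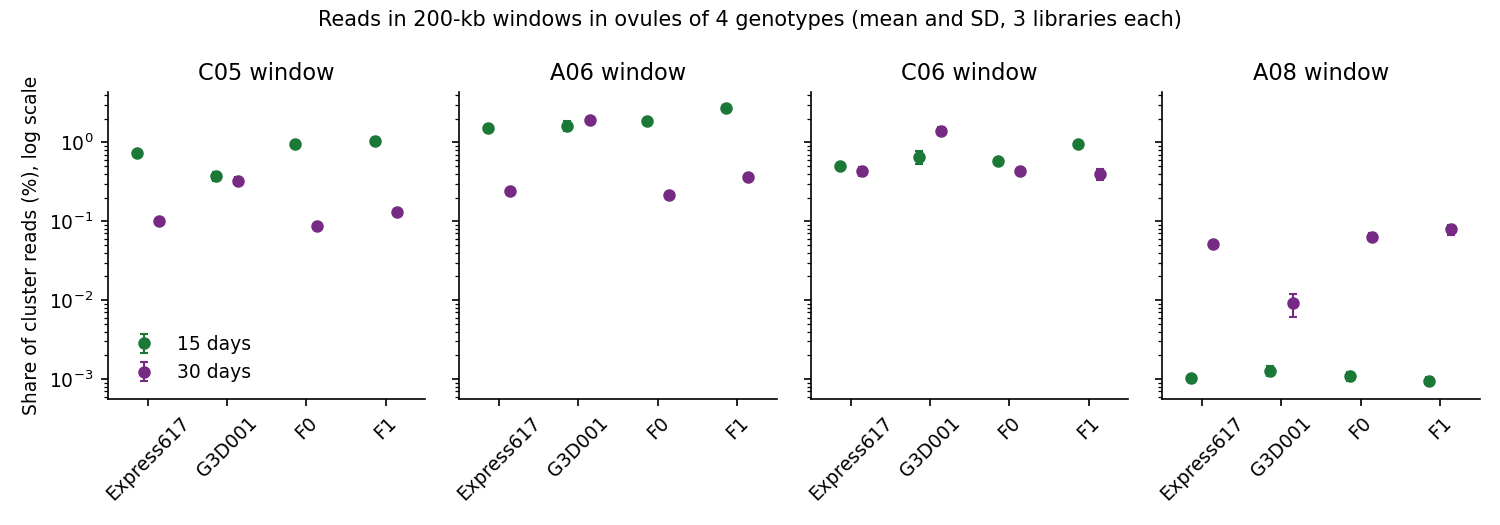
Share of cluster reads (%, y axis, log scale) in 4 windows of 200 kb for ovules of Express617, G3D001, the F0 and the F1 at 15 and 30 days; points are means and bars SD of 3 libraries. In the C05 and A06 windows the share is lower at OS30 in Express617, the F0 and the F1, while G3D001 has 0.370% and 0.329% on C05 and 1.63% and 1.91% on A06.

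Loci gained by OS30 were defined as clusters with at most 3 reads in each OS15 library and at least 1 CPM in each OS30 library, and lost loci by the reverse. There were 19439 gained loci, 21.3% of all clusters, and 74 lost loci. With the minimum of 347 reads over all libraries, a locus that was low at 1 stage has its reads elsewhere. Gained loci together held 0.130%, 0.133% and 0.132% of the reads at OS15, and 6.86%, 6.56% and 5.48% at OS30. Their median read count was 1 in each OS15 library and 52, 51 and 55 at OS30. In 1384 of them no OS15 library had a read. In F1 leaf they had a median of 0.231 CPM. These values follow from the definition and were not tested.

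Gained loci were found in all length classes, with 17.7% of the clusters of up to 100 bp, 20.6%, 19.9% and 23.7% of the next 3 classes and 26.4% of those of 3000 bp or more. By chromosome they made up between 19.1% (A03) and 23.7% (C02) of the clusters. Of the clusters below 0.1 CPM per kilobase in the F0 at OS15, 57.1% were gained in the F1, and above 10 there were 2. The 74 lost loci had a median length of 581.5 bp, with 32 on A, 38 on C chromosomes and 4 on unplaced sequences, and none was 3000 bp or longer. By the same definition 15976 loci were gained in Express617, 15324 in the F0 and 1117 in G3D001. Of the F1 list, 50.1% was also gained in Express617, 49.1% in the F0 and 3.23% in G3D001, which is 61.0%, 62.3% and 56.1% of the lists of those genotypes. Over all clusters, 17.5% were gained in Express617, 16.8% in the F0 and 1.23% in G3D001. Without replicate 3 of OS30 the definition gave 124 lost loci, and without any other library 77 or more. Of the 74 lost loci, 47 were also lost in Express617, 39 in the F0 and 15 in G3D001, where 105, 98 and 34 of all 91060 clusters were lost.

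Single clusters were named by a rule on p, level and reads. The clusters with the smallest adjusted p among those higher with both scalings had few reads at OS15. Cluster_45187 on C03 (30459689 to 30461158, 1470 bp) had 1.05, 1.57 and 1.59 CPM at OS15 and 882, 788 and 637 CPM at OS30. Its log2 fold change was 9.09 ± 0.19 (SE, edgeR adjusted p = 8.32e-29), and 5.99 with TMM. Cluster_70061 on C07 (33398382 to 33398564, 183 bp) had 30.9, 42.2 and 30.4 CPM at OS15 and 2442, 2302 and 2024 CPM at OS30, with a log2 fold change of 6.03 ± 0.13 (SE, edgeR adjusted p = 1.46e-28). This short cluster was the only one of the 5 with more than 2 CPM at OS15. A pair in this ranking lies on A03. Cluster_7598 (3657194 to 3659267, 2074 bp) had 0.291, 0.217 and 0.683 CPM at OS15 and 783, 1097 and 579 CPM at OS30, and Cluster_8832 (17152257 to 17154281, 2025 bp) had 0.465, 0.813 and 0.569 CPM at OS15 and 358, 319 and 257 CPM at OS30. Both were called higher with total counts (edgeR adjusted p = 4.08e-27 and 1.73e-26) and with TMM.

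Among gained loci, the one with the most reads at OS30 was Cluster_88928, of 1025 bp on an unplaced sequence (57336 to 58360), which is also among the 5 with the smallest adjusted p. It had 0, 1 and 0 reads in the OS15 libraries and 9136, 12650 and 9163 in the OS30 libraries, and none in F1 leaf. The ratio of its summed share at OS30 to that at OS15 was 23772, with a 95% exact binomial interval of 4266 to 938981 that covers counting error only. The next were Cluster_42494 on C03 (8006451 to 8007424, 974 bp), with 0, 1 and 1 reads at OS15 and 5860, 8749 and 5765 at OS30, and Cluster_1060 on A01 (10387753 to 10388733, 981 bp), with 2, 0 and 2 reads against 4693, 6816 and 4763. Neither had a read in F1 leaf. All 3 thus went from at most 4 reads summed over a stage to at least 4693 in each library. Replicate 2 of OS30 was the highest in each of the 3.

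The clusters with the smallest adjusted p among those that fell with both scalings were strong at OS15 and all lay on 3 chromosomes. Cluster_16859 on A06 (7002074 to 7004891, 2818 bp) had 4734, 4057 and 4411 CPM at OS15 and 530.5, 551 and 660.0 CPM at OS30, a log2 fold change of -2.92 ± 0.09 (SE, edgeR adjusted p = 1.95e-24). Cluster_16866 (7012251 to 7015255, 3005 bp), in the same window of A06, had 2989, 2666 and 2898 CPM at OS15 and 336, 339.5 and 386 CPM at OS30. On C06, Cluster_61172 (4471206 to 4472049, 844 bp) had 3171, 2715 and 2784 CPM at OS15 and 272, 282 and 286 CPM at OS30, with a log2 fold change of -3.37 ± 0.09 (SE, edgeR adjusted p = 1.25e-25). About 30 kb away, Cluster_61144 (4441325 to 4442055, 731 bp) went from 1448, 1231 and 1251 CPM to 107, 106 and 108 CPM. Cluster_12308 on A04 (9548652 to 9549939, 1288 bp) had 3056, 2640 and 2550 CPM at OS15 and 292, 299.6 and 288 CPM at OS30. None of the 5 exceeded 0.527 CPM in an F1 leaf library. They fell 7.58-fold to 12.2-fold between the stages and still had 106 CPM or more in each library at OS30.

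Lost loci had far fewer reads. Cluster_14529 on A05 (10636900 to 10637547, 648 bp), the strongest of them, had 298, 287 and 366 reads at OS15 and 2, 3 and 1 at OS30. Cluster_20853 on A07 (11243068 to 11243517, 450 bp) had 210, 161 and 197 reads at OS15 and 0, 0 and 1 at OS30. Cluster_10074 on A03 (28229890 to 28230996, 1107 bp) had 131, 121 and 207 reads at OS15 and 0, 2 and 0 at OS30. From OS15 to OS30 the ratio of shares was 206 (95% exact binomial interval of 94.5 to 564) for Cluster_14529, 739 (132 to 29259) for Cluster_20853 and 299 (82.2 to 2475) for Cluster_10074, for counting error only. Their wide intervals come from the 1 to 6 reads left at OS30.

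The strongest clusters of either stage had log2 fold changes between -1.38 and 1.87, all under the median of 3.45. Cluster_77054 on C09 (3185112 to 3185959, 848 bp) was first at both stages, with 26630, 35057 and 33205 CPM at OS15 and 24885, 28726 and 40927 CPM at OS30. Its groups overlapped and its log2 fold change was -0.01 ± 0.09 (SE, edgeR adjusted p = 0.957). Without replicate 3 of OS30, its highest library, the log2 fold change was -0.24 and was called lower (edgeR adjusted p = 0.00438). With TMM it was -3.08. Cluster_75069 on C08 (37425541 to 37425736, 196 bp) had 16757, 17856 and 18348 CPM at OS15 and 6139, 8048 and 6143 CPM at OS30, and Cluster_70555 on C07 (38069987 to 38070436, 450 bp) had 14443, 14679 and 16302 CPM at OS15 and 5895, 7299 and 8224 CPM at OS30. Both fell, with log2 fold changes of -1.38 ± 0.07 and -1.08 ± 0.07 (SE, edgeR adjusted p = 8.97e-19 and 1.16e-15).

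In F1 leaf, Cluster_77054, Cluster_75069 and Cluster_70555 had means of 1606, 2210 and 416 CPM. The other strong clusters of OS30 had higher leaf levels. Cluster_21772 on A07 (19839530 to 19840147, 618 bp) had 5708, 4496 and 4389 CPM at OS15 and 20574, 18106 and 14714 CPM at OS30, and 6446 to 7342 CPM in F1 leaf. Cluster_55810 on C05 (5570496 to 5571371, 876 bp) had 8372, 6630 and 10011 CPM at OS15 and 16124, 17940 and 19044 CPM at OS30. Both rose with total counts (log2 fold changes of 1.87 and 1.09) and had values of -1.24 and -2.003 with TMM, while the median of all clusters with TMM was 0.39.

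The share of clusters that rose was similar in the F1, Express617 and the F0 and lower in G3D001. Each genotype was fitted alone with its own 6 libraries. In Express617 76453 clusters rose (84%) and 4866 fell (5.35%), in the F0 76972 rose (84.6%) and 4458 fell (4.9%), and in G3D001 25492 rose (28.1%) and 3097 fell (3.41%). The median log2 fold changes were 3.20, 3.23 and 0.92. With TMM 27864 clusters were higher (30.6%) and 23193 lower (25.5%) in Express617, 26602 (29.2%) and 23246 (25.5%) in the F0, and 9860 (10.9%) and 7559 (8.33%) in G3D001. To hold 90% of the reads it took 36599 to 37949 clusters in Express617 and 36330 to 37594 in the F0 at OS30, but 2793 to 3322 in G3D001, where the OS15 libraries took 1157 to 1536. Of the clusters that rose in the F1, 97.0% also rose in Express617, 97.4% in the F0 and 32.1% in G3D001, which is 97.5%, 97.3% and 96.7% of the clusters that rose there. Of those that fell, 72.2%, 68.8% and 38.0% also fell in Express617, the F0 and G3D001, or 78.8%, 81.9% and 65.2% of the clusters that fell in these genotypes.

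The difference itself was tested as an interaction in one fit of all 24 ovule libraries. Larger and smaller refer to the signed log2 change, so a cluster that fell in the F1 and rose elsewhere counts as smaller. Against G3D001, the change of the F1 was larger in 52902 clusters (58.1%) and smaller in 3230 (3.55%). With TMM it was larger in 5389 (5.92%) and smaller in 16019 (17.6%). The 3230 clusters had a median log2 fold change of -1.41 in the F1 and 0.33 in G3D001. Against Express617 the F1 change was larger in 709 (0.779%) and smaller in 1098 (1.21%), and with TMM in 395 (0.434%) and 1612 (1.77%). Against the F0 it was larger in 757 (0.831%) and smaller in 1399 (1.54%), and with TMM in 541 (0.594%) and 1770 (1.94%). The size of the shorter lists moved with single libraries. The clusters with a larger change than in Express617 numbered 440 without F1 replicate 1 of OS15, 406 without replicate 1 of OS30 and 444 without replicate 2 of OS30. Those with a larger change than in the F0 numbered 472 without replicate 1 of OS15 and 443 without replicate 1 of OS30. All 1098 and all 1399 clusters with a smaller change in the F1 were also called with TMM. This gives no support, because TMM moved the differences down, with medians from 0.187 to -0.0987 against Express617 and from 0.158 to 0.0075 against the F0. Of the clusters with a larger change, 395 of 709 and 540 of 757 were also called with TMM. These contrasts share the 6 F1 libraries and are not independent of each other.

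Clusters whose change was smaller in the F1 than in the F0 had a common pattern in the parents. That contrast did not compare the parents, but their libraries were in the same fit and entered its dispersion. Of the 1399, 85.1% had all G3D001 libraries above all Express617 libraries at OS15, against 16.2% of all clusters, and 3.72% had them below, against 15.4%. Their median was 0.226 CPM in the F0 at OS15 and 2.79 CPM at OS30, whereas the F1 had 2.50 and 3.40 CPM. Express617 had medians of 0.250 and 2.09 CPM, and G3D001 had 3.37 and 3.03 CPM. The F1 and F0 values chose the list, so their difference at OS15 is a description. The values of the parents are not free of this choice. F0 ovules are Express617 ovules, and the 2 had similar medians at OS15 (0.226 and 0.250 CPM). The 85.1% is therefore a description as well. The 757 clusters with a larger change in the F1 than in the F0 showed the reverse, with 69.2% below in G3D001 at OS15 and medians of 0.243 CPM in the F1, 1.31 CPM in the F0 and 1.18 CPM in Express617. Against Express617 the 1098 clusters with a smaller change were above in G3D001 at OS15 in 82.97%, though that count uses the same Express617 libraries as the contrast. Of the 1399 clusters 7.15% lay on A02 and 6.08% on C02, against 4.41% and 5.52% of all clusters.

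The cluster with the smallest adjusted p against the F0 was Cluster_4688 on A02 (12509688 to 12514967, 5280 bp). It had 661, 589 and 658 CPM in the F1 at OS15 and 1804, 1614 and 1752 CPM at OS30. The F0 had 6.24, 3.97 and 5.61 CPM at OS15 and 790.1, 1106 and 1224 CPM at OS30. Express617 had 5.02 ± 0.868 CPM and G3D001 2268 ± 482 CPM at OS30 (SD, n = 3 each). The F1 change was smaller than that of the F0 by a log2 difference of -6.18 ± 0.28 (SE, edgeR adjusted p = 4.91e-16). Against Express617 it was Cluster_41330 on C02 (55582976 to 55587955, 4980 bp), with 69.7, 52.8 and 63.2 CPM in the F1 at OS15 and 53.7, 53.0 and 49.0 CPM at OS30, while Express617 had 0.136, 0.138 and 0.269 CPM at OS15 and 31.5, 34.6 and 41.0 CPM at OS30. The difference was -7.78 ± 0.41 (SE, edgeR adjusted p = 5.23e-14). G3D001 had 105 ± 10.6 CPM on it at OS15, although its chromosome C02 was described as deleted. Against G3D001 it was Cluster_16923 (7080850 to 7083094, 2245 bp) in the A06 window of losses, with 185, 147 and 138 CPM in the F1 at OS15 and 39.6, 36.4 and 46.4 CPM at OS30, against 14.9, 12.6 and 10.3 CPM and 183, 196 and 190.0 CPM in G3D001. The difference was -5.85 ± 0.29 (SE, edgeR adjusted p = 1.23e-14).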

How the data were processed

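Small RNA was sequenced from ovules and leaves with a NEBNext small RNA kit. The authors removed reads under 18 bp with seqtk, mapped the rest to the Express617 assembly with ShortStack and deposited raw counts of reads per cluster for 33 libraries. Sequence entries without a position took 3.57% to 4.56% of the F1 ovule reads and entered neither library totals nor any test. Nothing marks whether replicates were sequenced together.

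The 6 F1 ovule libraries were fitted with edgeR 4.0.16 (R 4.3.3), stage as the only term, library totals as scale and no filter beyond a count in any library. Calls had a Benjamini-Hochberg adjusted p under 0.05. Shares were compared with the exact permutation test (Python 3.11.15). The design without a replicate block was kept because same-numbered libraries of the 2 stages did not deviate together (correlations of 0.0275, 0.0153 and -0.00259). They also share a code in their titles, and the labels do not say what it marks. Fold changes carry edgeR's default prior count, so fitted values of clusters near 0 reads are no bounds. The SE given with an edgeR log2 value is its absolute size divided by the square root of the test's F statistic.

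In simulated data 200 clusters were changed 4-fold and the others left unchanged, with a common dispersion of 0.065 (OS15) and 0.029 (OS30). At the cluster means of OS15, 92.5% of the 200 were recovered, with 5 false calls among 89151 clusters. At those of OS30, 98.5% were recovered, with 6 among 91005. Recovery was not split by level, so these rates do not cover weak clusters, and the median OS15 cluster had 4 or 5 reads. In the F1 libraries 76870 clusters rose and 5309 fell, and changes of that extent were not simulated.

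Clusters were named by rule: the 5 smallest adjusted p in each direction among clusters with no overlap between stages and the same call with total counts and TMM, the 3 highest at each stage, the 3 highest gained and lost loci, and the smallest adjusted p of each interaction. Members, classes and lists were chosen with earlier results of these data known. The classes by F0 level, the lists of the first 1000 clusters, the windows and the lengths of entries without a position were added after the values were seen. Alternatives were TMM, RLE, DESeq2 1.42.0, filters, a replicate block, and leaving out each library or the strongest clusters.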

Additional observations from a re-analysis of the deposited data

Results flagged for a closer look

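The change from OS15 to OS30 differed between the F1 and another genotype by the interaction test (edgeR, Benjamini-Hochberg adjusted p under 0.05) for 1807 clusters against Express617, 56132 against G3D001 and 2156 against the F0, of 91059 tested. In single clusters, the F1 change minus that of Express617 was -7.78 on the log2 scale for Cluster_41330 on C02, where the F1 had a mean of 61.9 CPM at OS15 and 51.9 at OS30 and Express617 had 0.181 and 35.7. The F1 change minus that of G3D001 was -5.85 for Cluster_16923 on A06, and the F1 change minus that of the F0 was -6.18 for Cluster_4688 on A02. Groups of 3 libraries are too small to single out one that stands apart.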

How the results depend on the processing

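The calls depend first on the scale. The clusters higher at OS30 numbered 28361 with TMM, 30841 with RLE and 28032 with DESeq2, those lower 23689, 22945 and 22963, and the median log2 fold change was 0.39, 0.48 and 0.48, or 3.005 with a prior count of 2. Cluster_21772 turned to -1.24, -1.16 and -1.16, Cluster_55810 to -2.003, -1.91 and -1.91, and Cluster_4688 to -1.66, -1.57 and -1.57 with TMM, RLE and DESeq2. With TMM the signed F1 change was larger in 395 clusters against Express617 and in 5389 against G3D001. It was smaller in 16019 against G3D001, and different in 21408 against G3D001. With TMM, 70.8% and 82.6% of the higher and lower F1 clusters had the same call in Express617, 24.6% and 29.1% in G3D001, and 69.7% and 82.1% in the F0. The class below 0.5 CPM per kilobase lay at -0.34 from all clusters when 10 counts in 3 libraries were required and at -1.36 with TMM. Without the 100 clusters with the most reads, the OS30 minus OS15 share turned to 0.324 percentage points on A01, 0.274 on A05, 0.118 on C02, 0.540 on C06, 1.17 on C07 and 0.415 on C08. With 0 counts and 1 CPM as limits there were 1384 gained and 9 lost loci, and with 3 counts and 2 CPM 8649 and 38.

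Under the alternatives that keep all libraries, 72 other values of main results and 103 of further results, most of them single clusters, kept their direction and their call or about their count, and Cluster_77054 and Cluster_41330 became lower with TMM (-3.08 and -3.36).

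With each F1 library left out in turn, 75769 to 76712 clusters were higher and 4885 to 5299 lower. The share difference ranged from -0.289 to 0.00602 percentage points on C05 and from -0.126 to 0.0670 on C06, and Cluster_77054 from -0.24 to 0.14. The class below 0.5 ranged from -1.49 to -1.19 and that of 100 or more from -4.21 to -4.02, lost loci from 77 to 124, and clusters with a larger F1 change from 406 to 634 against Express617 and from 443 to 700 against the F0. The class of 100 or more by F0 level ranged from -4.51 to -4.33. Where the cause of a shift is not given by how the alternative is built, it was not tested.

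With the replicate block, 76128 clusters were higher and 4902 lower with a median of 3.47, 1690, 55717 and 2043 clusters differed from Express617, G3D001 and the F0, so that no count moved by over 1.5 times, and the named clusters kept their calls. The titles give same-numbered libraries of a genotype a shared code as well, whose meaning is not stated. Replicates 1 and 2 of OS15 deviated most like their own number of OS30 (0.0275 and 0.0153), and replicate 3 most like replicate 2 (0.0273). Counts near 0 at OS15, where the median cluster had 4 or 5 reads, limit the precision of single weak clusters.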

Other observations

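The counts also hold 10201 entries given by their RNA sequence without a position, 2784 of them of 24 bases. They were not placed on the genome, their organism was not checked, and they were grouped by length after the values were seen. Of the F1 reads on such entries, 37.6%, 30.9% and 33.3% were of 24 bases at OS15 and 23.3%, 17.8% and 21.3% at OS30, without overlap (exact permutation test, p = 0.10, the smallest possible, and 0.20 after adjustment over 6 length classes). Entries of 25 to 36 bases held 17.1% ± 2.23 at OS15 and 27.3% ± 5.17 at OS30 (SD, n = 3 each), also without overlap. The share of 24 bases was 6.28% ± 0.529 in F1 leaf, 6.29% ± 0.437 at OS15 and 4.26% ± 1.61 at OS30 in Express617, and 6.54% ± 0.334 and 8.26% ± 1.09 in the F0 (SD, n = 3 each). In G3D001 it was 53.1% ± 2.76 and 47.8% ± 1.66 (SD, n = 3 each). The F1 values thus lay between those of its parents at both stages. Entries of 21 bases held 30.4% and 27.3% in replicate 2 of OS15 and OS30, and 13.3% to 16.9% in the other F1 ovule libraries.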
